A study of Mus musculus with 4 samples.

Results

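Mature neurons were chosen by the UMI counts of marker genes in 4 single-cell RNA libraries of mouse brain, as barcodes in which at least 5 of 8 pan-neuronal genes (Rab3a, Celf4, Syt1, Snap25, Grin2b, Gabrb2, Snhg11 and Rbfox3) had at least 1 unique molecular identifier (UMI, the count of a captured RNA molecule). A barcode also needed at least 1000 UMIs, at least 500 genes and at most 20% mitochondrial UMIs, at most 2 UMIs of the immature-neuron genes Dcx and Sox11 together, and at most 3 UMIs of C1qa, Ctss, Cldn5 and Mog together, which mark microglia, endothelium and oligodendrocytes. The rule found 1121 neurons among 60717 barcodes that passed the filters (1.85%) and among 74993 deposited barcodes. All mice were male and carried human APOE in place of the mouse gene by targeted replacement, either APOE4 or APOE3 on both alleles; their age was not given in the sources used here. The 4 groups were APOE4 with lipopolysaccharide (LPS, a bacterial endotoxin; 5 mg/kg into the peritoneum, brains taken 24 h later), APOE4 with NaCl, APOE3 with LPS, and APOE3 with NaCl. Each group was 1 library of pooled brain cells from 3 mice, prepared to enrich for glia and labelled as non-neuronal, so neurons are a minority left in the suspension.

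Since each group was a single library, differences have no replicate check: none was tested, no p-value is given, and every interval is a 95% interval of counting error that leaves out differences between mice and between library preparations. UMIs were summed over the neurons of a library and are given as CPM (UMIs per 1000000 of that sum). A ratio of libraries on the log2 scale is that of CPM + 1, and a gene is counted as higher or lower from 1.5-fold on that scale, among the 12156 genes with at least 50 UMIs over the neurons of all 4 libraries.

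Neurons signal through synaptic vesicles that release glutamate or GABA, and the vesicular glutamate transporters Slc17a7 (mostly cortex and hippocampus) and Slc17a6 (mostly thalamus and brainstem) and the GABA-making enzymes Gad1 and Gad2 divide them into excitatory and inhibitory cells. Synaptic activity raises calcium and cAMP in the neuron and switches on immediate-early genes such as Fos, Arc and Egr1 through the transcription factors CREB and SRF, and the same genes can be induced while tissue is dissociated. Systemic LPS causes sickness behaviour and a surge of glucocorticoid, and neurons carry glucocorticoid receptors. Adult neurons make little cholesterol and take up much of what they need from lipoproteins that carry APOE.

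The cells matched their label. All 16 neuronal genes that the rule did not use, among them Map2, Syn1, Syp, Nefl, Thy1 and Uchl1, were found in the neurons of every library. Their summed level was 11809 CPM in APOE4 LPS and 13193 CPM in APOE4 NaCl neurons, and 11097 CPM in APOE3 LPS and 13258 CPM in APOE3 NaCl neurons. Astrocytes of the same libraries, rebuilt here as barcodes with at least 5 markers of exactly 1 class, had 800.3 to 922 CPM, microglia had 125 to 381 CPM, oligodendrocyte precursors had 4608 to 5009 CPM, and neuroblasts, a neuronal class, had 14303 to 19934 CPM. The neurons thus stood above these glial classes, least so above the precursors, and not above neuroblasts in this list.

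The 4 libraries were not alike in quality, and APOE4 LPS stood apart. Of its barcodes, 61.9% passed the filters, against 92.6% in APOE4 NaCl, 93.7% in APOE3 LPS and 93.3% in APOE3 NaCl. The median neuron had 5487 UMIs in APOE4 LPS and 7648 in APOE4 NaCl, and 6019.5 in APOE3 LPS and 6145 in APOE3 NaCl. Summed over neurons this gave 1254416 UMIs in APOE4 LPS and 3512507 in APOE4 NaCl, and 2130456 in APOE3 LPS and 2311386 in APOE3 NaCl. Markers of another cell class (at least 5 of its list) were found in 26.0% of APOE4 LPS and 15.0% of APOE4 NaCl neurons, and in 10.8% of APOE3 LPS and 11.3% of APOE3 NaCl neurons. At least 1 UMI of C1qa, Ctss, Cldn5 or Mog was found in 45.8% of APOE4 LPS and 18.5% of APOE4 NaCl neurons, and in 32.0% of APOE3 LPS and 19.1% of APOE3 NaCl neurons. Pairs of libraries shared 61 to 140 barcodes, and none of those was a neuron in both. No doublet caller was run; results are given again without the neurons that carry markers of another class wherever that changes them.

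Neurons were scarcest in the APOE4 LPS library and most frequent in APOE4 NaCl. They were 177 of 18182 barcodes in APOE4 LPS (0.973%, 95% interval 0.836 to 1.13) and 373 of 13071 in APOE4 NaCl (2.85%, 2.57 to 3.15). In the APOE3 libraries they were 278 of 15060 after LPS (1.85%, 1.64 to 2.07) and 293 of 14404 after NaCl (2.03%, 1.81 to 2.28). The intervals of the APOE4 libraries do not overlap and those of the APOE3 libraries do, but the share of a cell type left behind by a glial preparation also depends on how many other cells were captured, and that part cannot be told apart here. The limit on C1qa, Ctss, Cldn5 and Mog bore most on APOE4 LPS: of barcodes with at least 5 of the 8 genes it left out 136 of 336 there, 49 of 475 in APOE4 NaCl, 64 of 382 in APOE3 LPS and 33 of 367 in APOE3 NaCl. Without that limit the share was 1.68% in APOE4 LPS and 3.17% in APOE4 NaCl, and 2.14% in APOE3 LPS and 2.19% in APOE3 NaCl, with APOE4 LPS still the lowest but nearer to the others. The share also rested on the barcode rule: 46 APOE4 LPS, 46 APOE4 NaCl, 40 APOE3 LPS and 51 APOE3 NaCl neurons had exactly 5 of the 8 genes, and 55 barcodes in APOE4 LPS, 33 in APOE4 NaCl, 32 in APOE3 LPS and 35 in APOE3 NaCl had 4 and were left out. Those just inside had median UMI counts of 2206.5 in APOE4 LPS and 3755 to 4797.5 in the other libraries, and those just outside had 1547 and 3260 to 3644, shallower on the outside in every library.

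**Figure D1:**
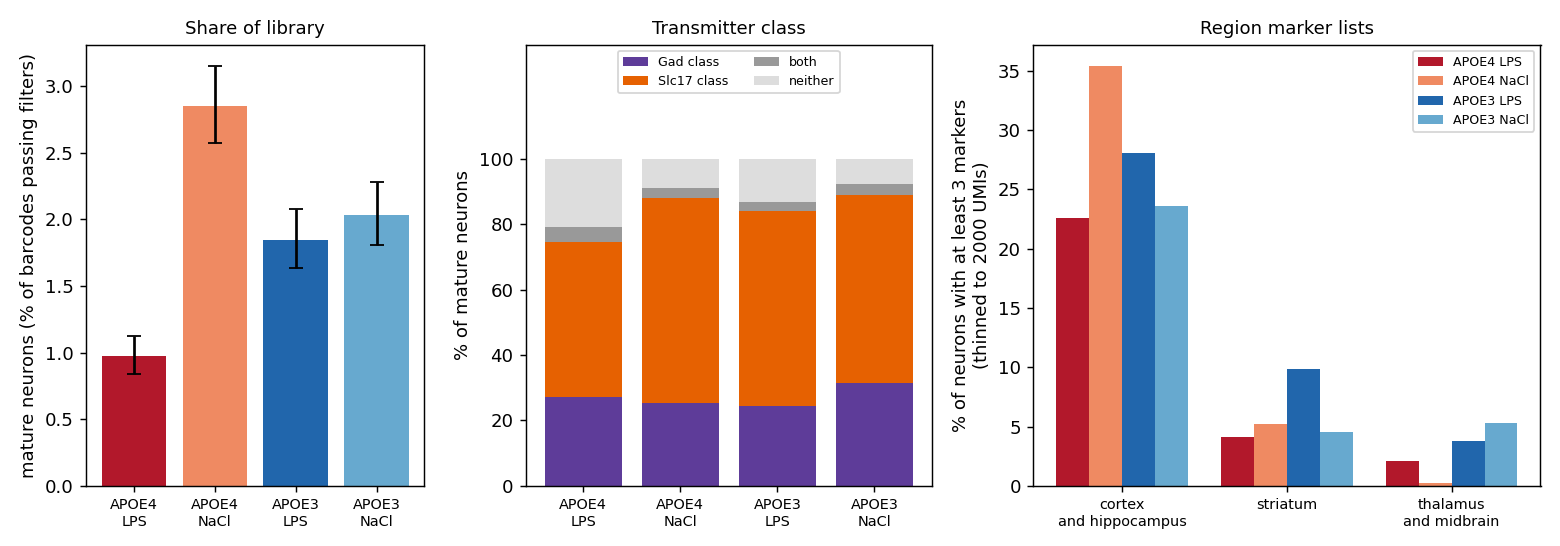
Mature neurons in each library. Left, neurons as a percentage of barcodes that passed the filters (bars, with 95% exact binomial intervals), lowest at 0.973% in APOE4 LPS and highest at 2.85% in APOE4 NaCl; middle, transmitter classes as percentages of the neurons; right, percentages of neurons with at least 3 markers of a brain region after each neuron was thinned to 2000 UMIs.

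Excitatory neurons outnumbered inhibitory ones in every library. The class with UMIs of Slc17a6 or Slc17a7 and none of Gad1 or Gad2 held 47.5% of neurons in APOE4 LPS and 62.7% in APOE4 NaCl, and 59.7% in APOE3 LPS and 57.7% in APOE3 NaCl. The reverse class, with Gad1 or Gad2 alone, held 27.1% in APOE4 LPS and 25.2% in APOE4 NaCl, and 24.5% in APOE3 LPS and 31.4% in APOE3 NaCl. Between 7 and 12 neurons per library had both, and 22 to 37 had neither. With every neuron thinned to 2000 UMIs the Slc17 class held 36.3% in APOE4 LPS and 45.3% in APOE4 NaCl, and 40.9% in APOE3 LPS and 43.7% in APOE3 NaCl, and APOE4 LPS remained the lowest. Microglia, which should lack these genes, gave the background: 1.26% to 2.88% of them had a Gad UMI and 0.839% to 3.17% an Slc17 UMI, at median depths of 2007 UMIs in APOE4 LPS and more elsewhere.

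Neurons with Slc17a7 alone, the type of cortex and hippocampus, numbered 48 in APOE4 LPS and 157 in APOE4 NaCl, and 106 in APOE3 LPS and 97 in APOE3 NaCl. They were 27.1% and 42.1% of the APOE4 neurons after LPS and NaCl and 38.1% and 33.1% of the APOE3 neurons after LPS and NaCl. Neurons with Slc17a6 alone were 11.3% in APOE4 LPS and 8.58% in APOE4 NaCl, and 12.2% in APOE3 LPS and 19.5% in APOE3 NaCl. The mixture of neuron types therefore differed between libraries, and differences between summed neurons carry that mixture. For this reason a number of results below are also given within the Slc17a7 type, the Slc17a6 type or the Gad class, and a value over all neurons need not hold in each.

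Markers of brain regions differed between the libraries too. After thinning, 22.6% of APOE4 LPS and 35.4% of APOE4 NaCl neurons, and 28.0% of APOE3 LPS and 23.6% of APOE3 NaCl neurons, had at least 3 of 11 markers of cortex and hippocampus. At least 3 of 10 striatal markers were found in 4.11% and 5.22% of APOE4 neurons after LPS and NaCl, and in 9.85% and 4.58% of APOE3 neurons after LPS and NaCl. The APOE4 NaCl library was short of thalamic and midbrain neurons, with 0.275% against 5.28% in APOE3 NaCl, and 2.05% in APOE4 LPS against 3.79% in APOE3 LPS. No neuron of any library had 3 of the 10 hindbrain markers, Hox genes among them; 0 of 177 neurons in APOE4 LPS allows a share of up to 1.69%, from a floor of 3 counts.

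Summed levels of region genes differed in the same way, and in a sum over neurons fewer cells of a type and less RNA per cell cannot be told apart. Between APOE3 LPS and APOE3 NaCl neurons 9 of 10 striatal genes were higher and 0 lower (median 1.56), in a comparison where 7.21% of all measured genes were higher and 9.11% lower. Between APOE4 LPS and APOE4 NaCl neurons 0 were higher and 7 lower (median -1.07), where 8.9% of all genes were higher and 9.01% lower. The D2 dopamine receptor Drd2 had 3.19 CPM in APOE4 LPS and 12.2 in APOE4 NaCl neurons, and 31.4 in APOE3 LPS and 5.62 in APOE3 NaCl neurons. Drd2 was highest in APOE3 LPS, and the most Drd2 UMIs found in 1 neuron of a library were 14. Thalamic and midbrain genes ran the other way between the APOE4 libraries, with 6 of 7 higher in APOE4 LPS than in APOE4 NaCl and 0 lower (median 1.28); their transcription factor Tcf7l2 had 123 CPM in APOE4 LPS and 35.6 in APOE4 NaCl neurons, and 103 in APOE3 LPS and 159.6 in APOE3 NaCl neurons. Slc17a6 itself had 120.4 CPM in APOE4 LPS and 50.1 in APOE4 NaCl neurons, and 87.8 in APOE3 LPS and 151 in APOE3 NaCl neurons.

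**Figure D2:**
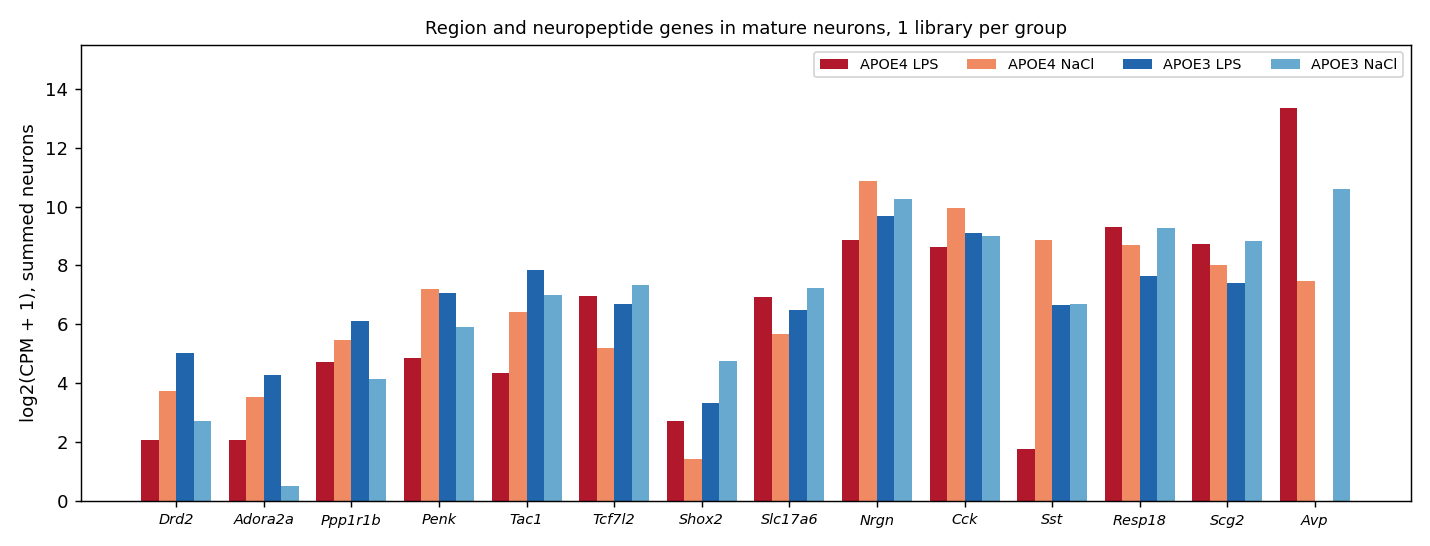
Level of region and neuropeptide genes in the summed neurons of each library, as log2(CPM + 1), 1 bar per library. Striatal genes (Drd2 to Tac1) are highest in an APOE3 LPS or APOE4 NaCl bar, Tcf7l2, Shox2 and Slc17a6 are lowest in APOE4 NaCl, and Avp is at 0 in APOE3 LPS.

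Neuropeptide genes differed by large amounts, and for several of them single neurons carried the difference. Avp, which encodes vasopressin, had 12972 UMIs in APOE4 LPS and 620 in APOE4 NaCl neurons, and 0 in APOE3 LPS and 3569 in APOE3 NaCl neurons. Of these, 12604 UMIs in APOE4 LPS, 482 in APOE4 NaCl and 3005 in APOE3 NaCl lay in 1 neuron each. Oxytocin (Oxt) had 149 UMIs in APOE4 LPS and 4 in APOE4 NaCl neurons, and 2 in APOE3 LPS and 15 in APOE3 NaCl neurons, and 146 of the APOE4 LPS UMIs lay in 1 neuron. The appetite peptide Agrp had 322 UMIs in APOE4 LPS and 21 in APOE4 NaCl neurons, and 18 in APOE3 LPS and 73 in APOE3 NaCl neurons, with 214 of the APOE4 LPS UMIs in 1 neuron. Single captured neurons decide these values, and no fold change is read from them. Somatostatin (Sst), of cortical and hippocampal interneurons, had 3 UMIs in APOE4 LPS and 1638 in APOE4 NaCl neurons, and 214 in APOE3 LPS and 236 in APOE3 NaCl neurons; 959 of the APOE4 NaCl UMIs lay in 1 neuron.

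Cholecystokinin (Cck), made by many cortical neurons, was spread over many cells. It had 395 CPM in APOE4 LPS and 986 in APOE4 NaCl neurons, and 553 in APOE3 LPS and 505 in APOE3 NaCl neurons, and was found in 28.8% and 45.0% of APOE4 neurons after LPS and NaCl and in 36.7% and 34.5% of APOE3 neurons after LPS and NaCl. Cck was 2.49-fold lower (95% interval 2.27 to 2.74) in APOE4 LPS than in APOE4 NaCl, and 1.95-fold higher (95% interval 1.83 to 2.09) in APOE4 NaCl than in APOE3 NaCl. Within the Slc17a7 type its log2 ratio was -1.06 for APOE4 LPS against NaCl and 0.27 for APOE4 NaCl against APOE3 NaCl. The genotype ratio after NaCl was 2.57 in the Gad class and 0.78 in the Slc17a6 type, so it was smaller than over all neurons in both Slc17 types and larger in the Gad class. The Gad-class ratio came from 657 UMIs in APOE4 NaCl and 97 in APOE3 NaCl. Of all 3462 APOE4 NaCl UMIs of Cck, 475 lay in 1 neuron. Whether that neuron was in the Gad class and carried its ratio was not tested. The granin Scg2 and its neighbour in the secretory granule Resp18 were lowest in APOE3 LPS. Resp18 had 627 CPM in APOE4 LPS and 408 in APOE4 NaCl neurons, and 198 in APOE3 LPS and 612 in APOE3 NaCl neurons, and Scg2 had 423 CPM in APOE4 LPS and 258 in APOE4 NaCl neurons, and 167 in APOE3 LPS and 458 in APOE3 NaCl neurons. In the Slc17a7 type the log2 ratios of APOE3 LPS to APOE3 NaCl were -0.02 for Resp18 and 0.88 for Scg2, near 0 for the first and of the opposite sign for the second. Gad-class ratios were -1.94 and -1.76, and in the Slc17a6 type -0.58 and -0.83, all lower with LPS. The whole peptide and granule list counted 9 of 21 higher and 5 lower (median 0.35) for LPS in APOE4 and 4 of 21 higher and 12 lower (median -0.68) for LPS in APOE3. These counts include genes that single neurons decide. In APOE4 LPS 1 neuron held 97.2% of the Avp, 98.0% of the Oxt, 91.7% of the Cartpt, 71.0% of the Gal and 66.5% of the Agrp UMIs. In APOE3 NaCl 1 neuron held 84.2% of the Avp and 58.0% of the Gal UMIs. Of all genes, 8.9% were higher and 9.01% lower in APOE4, and 7.21% higher and 9.11% lower in APOE3.

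Over all neurons, about as many immediate-early genes were lower with LPS as were not, in both genotypes. The list counted 1 of 21 higher and 9 lower (median -0.54) for LPS in APOE4, and 0 of 21 higher and 12 lower (median -0.71) for LPS in APOE3, where 9.01% and 9.11% of all genes were lower and their medians were -0.02 and -0.06. Its summed CPM stood at 0.713 of the NaCl level in APOE4 LPS and 0.643 in APOE3 LPS. Egr1, a zinc-finger transcription factor, had 55.8 CPM in APOE4 LPS and 162 in APOE4 NaCl neurons, and 73.2 in APOE3 LPS and 170.5 in APOE3 NaCl neurons. The LPS values of both genotypes lie below both NaCl values, and Egr1 was 2.91-fold lower (95% interval 2.27 to 3.78) with LPS in APOE4 and 2.33-fold lower (95% interval 1.93 to 2.82) in APOE3. Nr4a1, an orphan nuclear receptor, had 35.1 CPM in APOE4 LPS and 83.4 in APOE4 NaCl neurons, and 35.2 in APOE3 LPS and 89.6 in APOE3 NaCl neurons. Npas4, a factor induced by calcium entry, had 9.57 CPM in APOE4 LPS and 24.5 in APOE4 NaCl neurons, and 10.3 in APOE3 LPS and 24.2 in APOE3 NaCl neurons. The LPS libraries were again the lower pair in both genotypes: Nr4a1 was 2.38-fold (1.73 to 3.34) and 2.54-fold (1.94 to 3.36) lower in APOE4 and APOE3, and Npas4 was 2.56-fold (1.39 to 5.15) and 2.35-fold (1.41 to 4.04) lower. Among Slc17a7-type neurons Nr4a1 had log2 ratios of -0.57 in APOE4 and -1.91 in APOE3. Egr4 had 16.7 CPM in APOE4 LPS and 40.1 in APOE4 NaCl neurons, and 20.7 in APOE3 LPS and 35.5 in APOE3 NaCl neurons, and Egr2 had only 1 UMI in APOE4 LPS and 34 in APOE4 NaCl neurons, and 3 in APOE3 LPS and 15 in APOE3 NaCl neurons.

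The genes of the immediate-early list at least 1.5-fold lower in the LPS neurons of both genotypes were Egr1, Egr2, Egr4, Npas4 and Nr4a1. Their promoters are shown because CREB and SRF are known to act on such genes: each sequence runs 5′ to 3′ on the gene's strand from 250 bases before to 50 after a transcript start (RefSeq, build GRCm38.p6; Egr1 is named only), and capitals mark matches to TGACG, the core of the CREB site, on either strand, and to the SRF site known as the CArG box. The windows shown are Egr2 at chr10:67537619-67537918 (plus strand), Egr4 at chr6:85513540-85513839 (minus), Npas4 at chr19:4989922-4990221 (minus) and Nr4a1 at chr15:101266596-101266895 (plus). The Egr2 window is 1 of 5 for that gene and was picked from those with matches.
Egr2: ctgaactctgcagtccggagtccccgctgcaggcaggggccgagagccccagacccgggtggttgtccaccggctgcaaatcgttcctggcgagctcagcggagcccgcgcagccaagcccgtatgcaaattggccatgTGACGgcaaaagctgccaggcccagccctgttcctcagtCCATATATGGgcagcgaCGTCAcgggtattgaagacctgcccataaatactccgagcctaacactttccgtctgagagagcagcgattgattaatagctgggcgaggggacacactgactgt
Egr4: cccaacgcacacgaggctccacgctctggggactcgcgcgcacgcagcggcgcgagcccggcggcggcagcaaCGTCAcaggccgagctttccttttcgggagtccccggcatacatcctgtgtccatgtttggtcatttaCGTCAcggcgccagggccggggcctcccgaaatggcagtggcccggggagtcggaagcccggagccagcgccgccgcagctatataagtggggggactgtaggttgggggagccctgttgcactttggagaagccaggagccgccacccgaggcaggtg
Npas4: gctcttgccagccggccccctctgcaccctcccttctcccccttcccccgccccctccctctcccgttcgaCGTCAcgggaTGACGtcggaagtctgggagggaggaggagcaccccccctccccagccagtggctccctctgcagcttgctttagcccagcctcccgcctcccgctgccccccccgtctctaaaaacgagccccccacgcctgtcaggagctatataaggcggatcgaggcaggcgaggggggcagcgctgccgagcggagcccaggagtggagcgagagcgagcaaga
Nr4a1: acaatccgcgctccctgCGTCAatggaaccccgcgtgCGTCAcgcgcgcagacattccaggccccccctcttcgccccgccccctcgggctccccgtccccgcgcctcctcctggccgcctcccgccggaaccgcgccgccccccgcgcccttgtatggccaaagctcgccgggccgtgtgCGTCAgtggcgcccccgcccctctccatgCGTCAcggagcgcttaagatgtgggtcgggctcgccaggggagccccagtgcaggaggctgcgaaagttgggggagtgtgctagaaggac
Nr4a1 holds 4 such matches and the other windows shown hold 2 each, and the Egr2 window shown also holds a CArG box. Of the Egr2 windows not shown, the first holds no match of any kind and the second holds a CArG box but no TGACG. No window holds the full palindrome TGACGTCA. Of the 18 listed immediate-early genes found in the table, 14 (77.8%) have this core in at least 1 window; over windows it is 16 of 29 (55.2%), against 20.8% of all 32851 windows. The full palindrome is in 6.90% of the list's windows and 1.79% of all windows, and the CArG box in 13.8% and 1.63%. The CArG windows of the list all belong to Egr2, 1 of the 18 genes (5.56%), and some of them overlap. These are letter matches and do not show binding.

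The list was not uniform between genotypes. Arc, which encodes a postsynaptic protein that removes AMPA receptors, had 11.2 CPM in APOE4 LPS and 57.8 in APOE4 NaCl neurons, and 26.8 in APOE3 LPS and 39.4 in APOE3 NaCl neurons. It was found in 5.08% and 20.1% of APOE4 neurons after LPS and NaCl and in 11.9% and 14.7% of APOE3 neurons after LPS and NaCl; it was 5.18-fold lower (95% interval 3.02 to 9.64) in APOE4 and 1.47-fold lower (95% interval 1.05 to 2.09) in APOE3. Homer1, a postsynaptic scaffold, had 152 CPM in APOE4 LPS and 289 in APOE4 NaCl neurons, and 171 in APOE3 LPS and 233 in APOE3 NaCl neurons. Bdnf, a neurotrophin, had 45.4 CPM in APOE4 LPS and 62.3 in APOE4 NaCl neurons, and 15.96 in APOE3 LPS and 44.6 in APOE3 NaCl neurons. Arc and Homer1 were farther apart between the APOE4 libraries and Bdnf between the APOE3 libraries, and these differences between genotypes were not tested. Fos went in opposite directions, with 136 CPM in APOE4 LPS and 71.2 in APOE4 NaCl neurons, and 57.3 in APOE3 LPS and 128 in APOE3 NaCl neurons. Neurons held only 2.85% to 7.91% of the Fos level of the class highest for it, and 66.7% of APOE4 LPS microglia had a Fos UMI against 44.2% in APOE4 NaCl, so the part of free glial RNA in the Fos value was not tested. Junb, an AP-1 subunit, had log2 ratios of -0.54 in APOE4 and -0.52 in APOE3, and the nuclear receptor gene Nr4a2 had 0.14 and 0.49, the first at -0.54 without the neuron that held most of its APOE4 LPS UMIs. Arc was found in at most 0.243% of microglia.

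**Figure D3:**
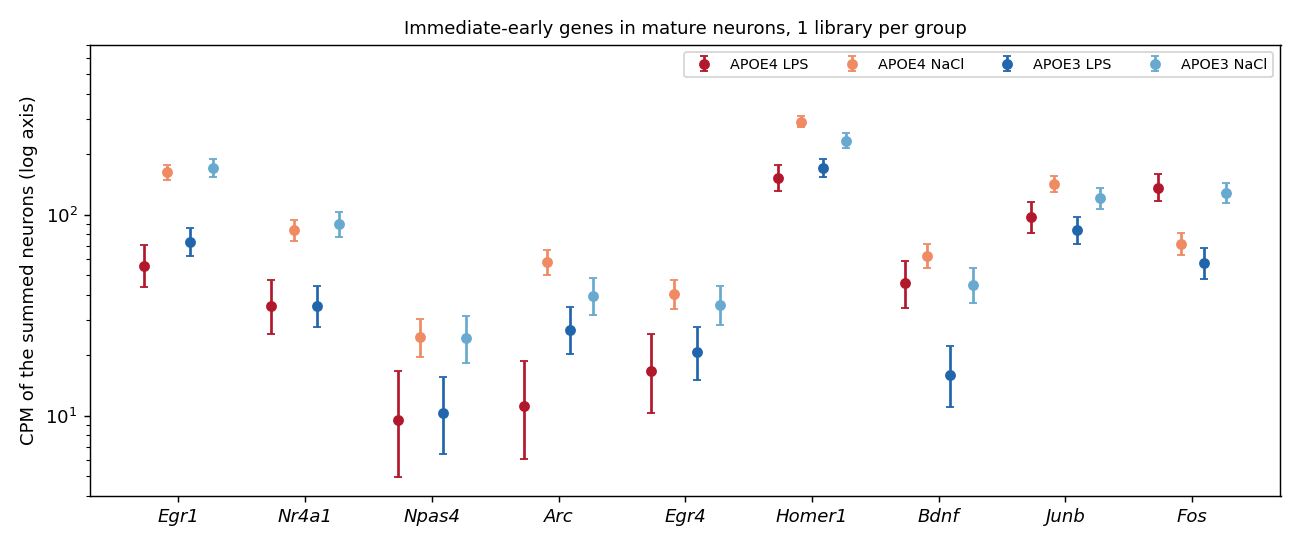
CPM of 9 immediate-early genes in the summed neurons of each library (points, log axis) with exact Poisson 95% intervals, 1 library per group. For Egr1, Nr4a1, Npas4, Arc, Egr4, Homer1 and Junb both LPS points lie below both NaCl points; for Fos the APOE4 LPS point lies above APOE4 NaCl and the APOE3 LPS point below APOE3 NaCl.

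Within the Slc17a7 type the list counted 1 of 18 higher and 5 lower (median -0.24) for LPS in APOE4 and 0 of 18 higher and 14 lower (median -1.36) for LPS in APOE3, where 18.8% and 10.6% of all genes measured in that type were lower. Egr1 had log2 ratios of -0.95 in APOE4 and -1.95 in APOE3, and Arc -1.58 and -0.91; Fos had 0.44 and -1.09. The APOE3 difference was thus larger in this type than over all neurons, and in APOE4 the count of lower genes there was nearer to the share of all genes. In the Gad class, where only 9 of the genes were measured, the counts were 2 of 9 higher and 4 lower (median -0.40) in APOE4 and 3 of 9 higher and 4 lower (median -0.08) in APOE3, where 13.5% and 20.8% of all genes were lower. There Egr1 had -1.32 in APOE4 and 0.91 in APOE3, Nr4a1 -0.40 and 0.52, and Junb -0.61 and 2.54, so Egr1 and Junb were higher with LPS in the APOE3 Gad class and Nr4a1 less so. Fos went the other way there, with 0.78 in APOE4 and -2.12 in APOE3, the second from 25 UMIs after LPS and 139 after NaCl. Arc had -0.69 and 3.11 there, the second from 11 UMIs after LPS and 1 after NaCl. In the Slc17a6 type Fos had 1.205 in APOE4 and 1.41 in APOE3, and Junb 0.86 and 0.57, all higher with LPS. Egr1 was nearly even in that type, at 0.09 in both genotypes, in APOE4 from 2 UMIs after LPS and 2 after NaCl. Nr4a1 had -0.24 in APOE3 and no UMI in APOE4, and Arc had at most 2 UMIs per library. The lower Egr1 and Junb of all neurons were thus not seen in the Slc17a6 type, where counts were low. Without neurons that carry markers of another class the list counted 1 of 21 higher and 13 lower (median -1.05) in APOE4 and 1 of 21 higher and 15 lower (median -0.76) in APOE3. Among neurons with no UMI of C1qa, Ctss, Cldn5 or Mog it counted 1 of 20 higher and 11 lower (median -0.89) and 0 of 20 higher and 7 lower (median -0.42).

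The same list had medians above 0 with LPS in oligodendrocytes, astrocytes and neuroblasts of the same 4 suspensions, and not in microglia. Oligodendrocytes counted 14 of 19 higher and 1 lower (median 1.77) for LPS in APOE4 and 16 of 19 higher and 1 lower (median 1.42) in APOE3, on a background of 14.1% and 9.75% of genes higher. Astrocytes counted 8 of 18 higher and 2 lower (median 0.56) and 7 of 18 higher and 0 lower (median 0.43), where 9.25% and 5.38% of their genes were higher. Neuroblasts counted 5 of 10 higher and 0 lower (median 0.68) and 3 of 10 higher and 1 lower (median 0.48), where 13.1% and 10.9% were higher. Microglia counted 4 of 19 higher and 10 lower (median -0.62) and 4 of 19 higher and 2 lower (median -0.02), where 22.1% and 10.9% of their genes were higher and 17.6% and 13.1% lower. The medians of the neurons were thus on the opposite side of 0 from those of oligodendrocytes, astrocytes and neuroblasts prepared in the same tubes, and on the same side as those of microglia, and with 1 library a group the difference between classes was not tested.

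**Figure D4:**
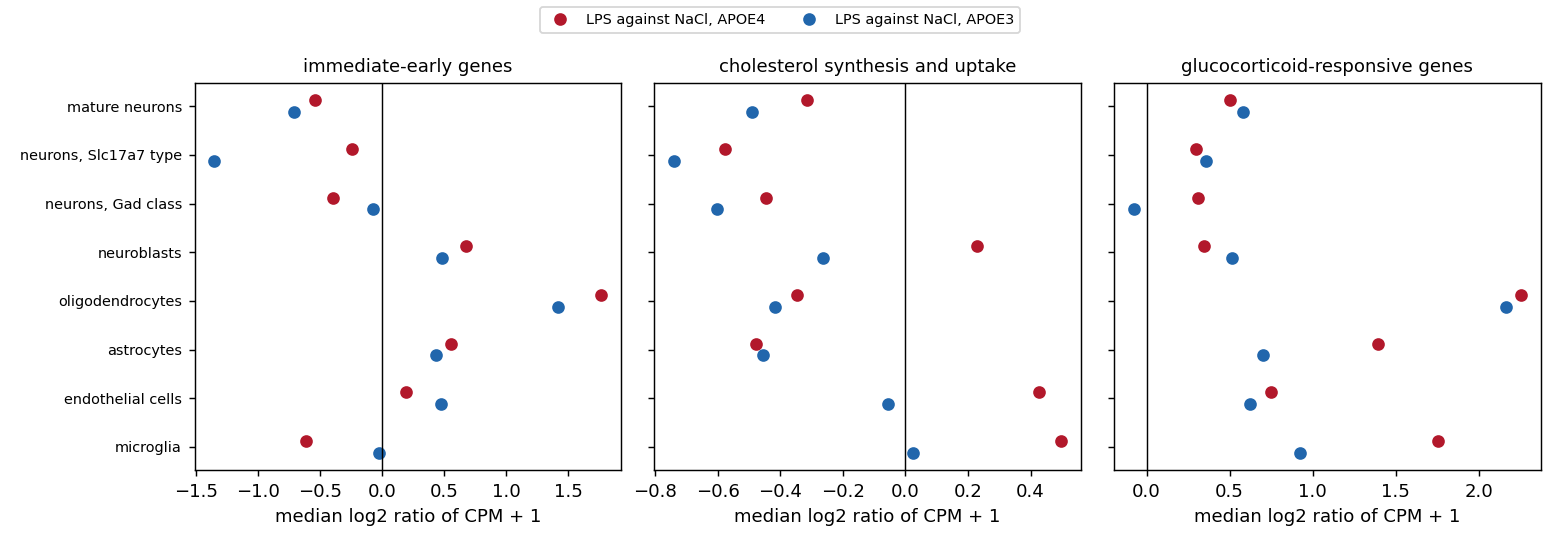
Median log2 ratio of LPS to NaCl for 3 gene lists in the neurons, in subsets of them and in other cell classes of the same libraries, APOE4 in red and APOE3 in blue. The immediate-early medians of the neurons lie at -0.54 in APOE4 and -0.71 in APOE3, and those of oligodendrocytes at 1.77 and 1.42.

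Several tubulin and other cytoskeletal genes were lower with LPS and none was higher. The list counted 0 of 21 higher and 5 lower (median -0.41) for LPS in APOE4 and 0 of 21 higher and 10 lower (median -0.55) in APOE3, where 9.01% and 9.11% of all genes were lower, and the difference between genotypes was not tested. Tubb3, the neuronal beta-tubulin, had 104 CPM in APOE4 LPS and 196 in APOE4 NaCl neurons, and 77.4 in APOE3 LPS and 225 in APOE3 NaCl neurons. Stmn1, which destabilises microtubules, had 339 CPM in APOE4 LPS and 610.4 in APOE4 NaCl neurons, and 331 in APOE3 LPS and 568 in APOE3 NaCl neurons. Both were lower in each LPS library than in its NaCl library, with Tubb3 1.896-fold (1.57 to 2.304) lower in APOE4 and 2.905-fold (2.43 to 3.48) lower in APOE3. Tuba4a, an alpha-tubulin, was 2.13-fold (1.72 to 2.67) and 2.13-fold (1.74 to 2.63) lower. The dendritic protein gene Map2 was close to even, with 592 CPM in APOE4 LPS and 517 in APOE4 NaCl neurons, and 527 in APOE3 LPS and 526 in APOE3 NaCl neurons. Gap43, of growth cones, was 2.62-fold (2.28 to 3.001) lower with LPS in APOE3 and 1.16-fold (1.01 to 1.33) lower in APOE4. Among Slc17a7-type neurons the list counted 0 of 20 higher and 10 lower (median -0.59) in APOE4 and 0 of 20 higher and 12 lower (median -0.68) in APOE3, where 18.8% and 10.6% of all genes were lower. In the Gad class it counted 0 of 19 higher and 3 lower (median -0.16) and 0 of 19 higher and 9 lower (median -0.56), where 13.5% and 20.8% of all genes were lower, so the APOE4 count there was near the share of all genes. In astrocytes it counted 1 of 20 higher and 1 lower (median 0.04) and 2 of 20 higher and 0 lower (median 0.05).

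A few genes of the synaptic vesicle cycle were lower with LPS, with 0 of 22 higher and 5 lower (median -0.49) in APOE4 and 0 of 22 higher and 1 lower (median -0.24) in APOE3. Of all genes, 9.01% were lower in APOE4 and 9.11% in APOE3, so the APOE3 count was below that share. Stx1a, a syntaxin of vesicle fusion, had 55.8 CPM in APOE4 LPS and 126 in APOE4 NaCl neurons, and 54.4 in APOE3 LPS and 89.99 in APOE3 NaCl neurons, and was 2.27-fold lower in APOE4 and 1.65-fold lower in APOE3. Cplx2, a complexin that clamps fusion, had 129.9 CPM in APOE4 LPS and 237 in APOE4 NaCl neurons, and 205 in APOE3 LPS and 196 in APOE3 NaCl neurons; only its APOE4 LPS value stood apart. The glutamate receptor list had medians of opposite sign, with 0 of 20 higher and 2 lower (median -0.25) in APOE4 and 3 of 20 higher and 0 lower (median 0.21) in APOE3. Its APOE4 count of lower genes was near the share of all genes, and 7.21% of all genes were higher in APOE3. Neurogranin (Nrgn), a calmodulin-binding protein of forebrain spines, had 461 CPM in APOE4 LPS and 1849 in APOE4 NaCl neurons, and 823 in APOE3 LPS and 1214 in APOE3 NaCl neurons, and was 4.01-fold lower (95% interval 3.68 to 4.38) with LPS in APOE4. The AMPA receptor subunit gene Gria1 had 803 CPM in APOE4 LPS and 702 in APOE4 NaCl neurons, and 974 in APOE3 LPS and 491 in APOE3 NaCl neurons. Over all neurons it was 1.98-fold higher (95% interval 1.84 to 2.13) with LPS in APOE3 and nearly even in APOE4. Within the Slc17a7 type its log2 ratio was 0.71 in APOE4 and 0.87 in APOE3, higher with LPS in both. Its Gad-class ratios were -0.08 in APOE4 and 1.18 in APOE3. Nrgn marks the cortical type that was scarcer in APOE4 LPS, and within that type its log2 ratio was -1.33. Voltage-gated channels counted 1 of 19 higher and 1 lower (median -0.11) in APOE4 and 1 of 19 higher and 0 lower (median 0.11) in APOE3, and genes of GABA synthesis and reception 0 of 15 higher and 0 lower (median -0.12) and 0 of 15 higher and 1 lower (median -0.03). Those last lists were at or below the share of all genes.

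A part of the genes of cholesterol synthesis and uptake were lower with LPS, and most were within 1.5-fold. The list counted 2 of 24 higher and 7 lower (median -0.31) in APOE4 and 0 of 24 higher and 11 lower (median -0.49) in APOE3, where 9.01% and 9.11% of all genes were lower. Hmgcs1, which makes the precursor HMG-CoA, had 55.8 CPM in APOE4 LPS and 115 in APOE4 NaCl neurons, and 53.98 in APOE3 LPS and 119 in APOE3 NaCl neurons. It was 2.06-fold lower (95% interval 1.596 to 2.696) in APOE4 and 2.204-fold lower (95% interval 1.77 to 2.76) in APOE3, with both LPS values below both NaCl values. Srebf2, which encodes the transcription factor SREBP-2 that drives the pathway, had 65.4 CPM in APOE4 LPS and 108 in APOE4 NaCl neurons, and 53.04 in APOE3 LPS and 109.9 in APOE3 NaCl neurons, and Msmo1, a sterol oxidase, had 42.3 CPM in APOE4 LPS and 91.1 in APOE4 NaCl neurons, and 53.04 in APOE3 LPS and 93.9 in APOE3 NaCl neurons. The LPS libraries were the lower of each pair for all of these. Insig1, which holds SREBP in the endoplasmic reticulum, was 2.46-fold (1.79 to 3.43) lower in APOE3 and 1.12-fold (0.834 to 1.52) lower in APOE4. Against the pathway, Ebp and Lss were higher in APOE4 LPS, with log2 ratios of 0.75 and 0.69. The list counted 0 of 19 higher and 9 lower (median -0.58) in APOE4 and 1 of 19 higher and 10 lower (median -0.74) in APOE3 within the Slc17a7 type, and 1 of 17 higher and 5 lower (median -0.44) and 0 of 17 higher and 10 lower (median -0.60) within the Gad class, against the shares of all genes given above for these subsets. Astrocytes counted 0 of 24 higher and 8 lower (median -0.48) and 0 of 24 higher and 7 lower (median -0.46), where 5.48% and 4.43% of their genes were lower. Microglia counted 10 of 24 higher and 1 lower (median 0.50) and 4 of 24 higher and 0 lower (median 0.03), where 22.1% and 10.9% of their genes were higher.

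Of 15 measured glucocorticoid-responsive genes, 7 were higher with LPS in each genotype. The list counted 7 of 15 higher and 0 lower (median 0.50) in APOE4 and 7 of 15 higher and 1 lower (median 0.58) in APOE3, where 8.9% and 7.21% of all genes were higher. Fkbp5, a co-chaperone that tempers the glucocorticoid receptor, had 63.8 CPM in APOE4 LPS and 24.2 in APOE4 NaCl neurons, and 69.5 in APOE3 LPS and 25.96 in APOE3 NaCl neurons. It was found in 29.9% and 17.7% of APOE4 neurons after LPS and NaCl and in 31.7% and 14.7% of APOE3 neurons after LPS and NaCl. Fkbp5 was 2.64-fold higher (95% interval 1.92 to 3.62) in APOE4 and 2.68-fold higher (95% interval 1.97 to 3.68) in APOE3. Neurons held 16.8% of the microglial level in APOE3 LPS. Within the Slc17a7 type its log2 ratio was 1.37 in APOE4 and 2.16 in APOE3, and within the Gad class 1.02 and -0.51, so the APOE3 Gad class had the opposite sign. Cdkn1a, a cell-cycle inhibitor, had 47 UMIs in APOE4 LPS and 36 in APOE4 NaCl neurons, and 56 in APOE3 LPS and 17 in APOE3 NaCl neurons, and was 3.66-fold (2.32 to 5.81) and 3.57-fold (2.05 to 6.56) higher. The kinase gene Sgk1 had 92.5 CPM in APOE4 LPS and 78.6 in APOE4 NaCl neurons, and 142 in APOE3 LPS and 79.2 in APOE3 NaCl neurons, and Tsc22d3, which encodes the anti-inflammatory protein GILZ, had 54.2 CPM in APOE4 LPS and 35.02 in APOE4 NaCl neurons, and 59.6 in APOE3 LPS and 40.2 in APOE3 NaCl neurons. Sgk1 was 1.18-fold higher in APOE4 and 1.796-fold higher in APOE3, and Tsc22d3 1.55-fold higher and 1.48-fold higher. The APOE3 log2 ratio of Sgk1 was -0.04 in the Slc17a7 type and 1.86 in the Gad class. Its APOE4 ratio was -0.34 and -0.40 there, of the opposite sign to all neurons. In the Slc17a6 type it was 0.76 in APOE4 and 0.69 in APOE3. The metal-binding protein gene Mt2 had 281 CPM in APOE4 LPS and 50.7 in APOE4 NaCl neurons, and 68.1 in APOE3 LPS and 55.8 in APOE3 NaCl neurons, and APOE4 LPS alone stood high. For Mt2 42 of the 145 APOE3 LPS UMIs lay in 1 neuron, without which its log2 ratio in APOE3 was -0.18, against 0.28 with it. These are values over all neurons, and the subsets differed. The Mt2 ratio was 3.14 in APOE4 and 1.91 in APOE3 in the Slc17a7 type, the second from 99 UMIs after LPS and 23 after NaCl. It was 1.69 and -0.97 in the Gad class, and -1.07 and -1.31 in the Slc17a6 type. In the Slc17a7 type the list counted 5 of 12 higher and 2 lower (median 0.30) and 5 of 12 higher and 1 lower (median 0.36), and in the Gad class 4 of 9 higher and 0 lower (median 0.31) and 3 of 9 higher and 1 lower (median -0.08), so its APOE3 median was near 0 there. Among neurons with no UMI of the 4 markers of other cells it counted 8 of 14 higher and 0 lower (median 0.65) and 4 of 14 higher and 1 lower (median 0.56). Oligodendrocytes counted 19 of 20 higher and 0 lower (median 2.25) and 19 of 20 higher and 0 lower (median 2.16), higher medians than in neurons.

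Interferon-stimulated genes were nearly all too sparse to measure in neurons: 8 of 32 listed genes had 50 UMIs. Those 8 counted 7 of 8 higher and 0 lower (median 1.66) for LPS in APOE4 and 4 of 8 higher and 0 lower (median 0.73) in APOE3. A gene that reached 50 UMIs through the LPS libraries alone had to be higher there, so these counts describe the genes and are not taken as support. Ifitm3, an antiviral membrane protein, had 321 UMIs in APOE4 LPS and 28 in APOE4 NaCl neurons, and 233 in APOE3 LPS and 26 in APOE3 NaCl neurons, and was 32.1-fold higher (95% interval 21.8 to 49.1) in APOE4 and 9.72-fold higher (95% interval 6.47 to 15.2) in APOE3; neurons held at most 6.70% of the level of the highest class. For MHC class I presentation 8 of 13 genes were measured, with 6 of 8 higher and 0 lower (median 0.82) in APOE4 and 5 of 8 higher and 0 lower (median 0.69) in APOE3. Of all genes, 8.9% were higher in APOE4 and 7.21% in APOE3. B2m, the invariant light chain, had 117 CPM in APOE4 LPS and 51.8 in APOE4 NaCl neurons, and 80.3 in APOE3 LPS and 32.02 in APOE3 NaCl neurons. It was 2.26-fold higher (95% interval 1.81 to 2.83) in APOE4 and 2.51-fold higher (95% interval 1.898 to 3.34) in APOE3, and H2-K1, a heavy chain, 2.96-fold (1.98 to 4.44) and 5.12-fold (3.06 to 9.06) higher.

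Microglial RNA in the neuron barcodes moved with the same libraries. The 10 microglial markers, 2 of which the rule limited, summed to 375 CPM in APOE4 LPS and 106 CPM in APOE4 NaCl neurons, and 172 CPM in APOE3 LPS and 119 CPM in APOE3 NaCl neurons, with none of the 10 at 0. Of the 9 measured, 8 were higher with LPS in APOE4 and 6 in APOE3. Among neurons with no UMI of C1qa, Ctss, Cldn5 or Mog the interferon list counted 4 of 6 higher and 0 lower (median 1.56) in APOE4 and 4 of 6 higher and 0 lower (median 0.77) in APOE3, and the MHC list 3 of 7 higher and 0 lower (median 0.55) and 4 of 7 higher and 0 lower (median 0.73). Within the Slc17a7 type the MHC list counted 5 of 7 higher and 1 lower (median 0.90) and 5 of 7 higher and 0 lower (median 1.55). These subsets are filtered in the same way, so their counts are no support for the sign, and the part of free RNA from glia in these values was not tested. Acute-phase transcripts were found almost wholly in the LPS libraries. Lcn2 had 290 UMIs in APOE4 LPS and 2 in APOE4 NaCl neurons, and 146 in APOE3 LPS and 0 in APOE3 NaCl neurons, at 1.63% of the level in the neutrophil class, and Saa3 had 168 UMIs in APOE4 LPS and 0 in APOE4 NaCl neurons, and 236 in APOE3 LPS and 1 in APOE3 NaCl neurons, at 1.51% of the level in the microglia class. Saa3 was found in 43.5% of APOE4 LPS and 7.91% of APOE3 LPS neurons, and 197 of its 236 APOE3 LPS UMIs lay in 1 neuron, which also held 80 of the Lcn2 UMIs there. In APOE4 LPS 111 of the Lcn2 UMIs lay in 1 neuron. The NF-kB and acute-phase list, with 11 of 21 genes measured, counted 6 of 11 higher and 0 lower (median 0.64) and 3 of 11 higher and 0 lower (median 0.24), where 8.9% and 7.21% of all genes were higher. Lcn2 and Saa3 reached 50 UMIs through the LPS libraries alone, so these counts are a description. The median was 0.016 in APOE4 among genes with at least 200 UMIs and -0.42 in the APOE3 Gad class. Markers of choroid plexus and ependyma summed to 7205 CPM in APOE4 LPS and 1336 CPM in APOE4 NaCl neurons, and 3397 CPM in APOE3 LPS and 1703 CPM in APOE3 NaCl neurons, nearly all of it transthyretin (Ttr). Much of the Ttr lay in 1 neuron per library. That neuron held 3986 of 8929 Ttr UMIs in APOE4 LPS and 1879 of 4340 in APOE4 NaCl. In the APOE3 libraries it held 2266 of 7023 after LPS and 2475 of 3760 after NaCl. Neutrophil markers summed to 16.7 CPM in APOE4 LPS, 9.39 CPM in APOE3 LPS and about 1 CPM after NaCl, with 5 or 6 of the 8 at 0.

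**Figure D5:**
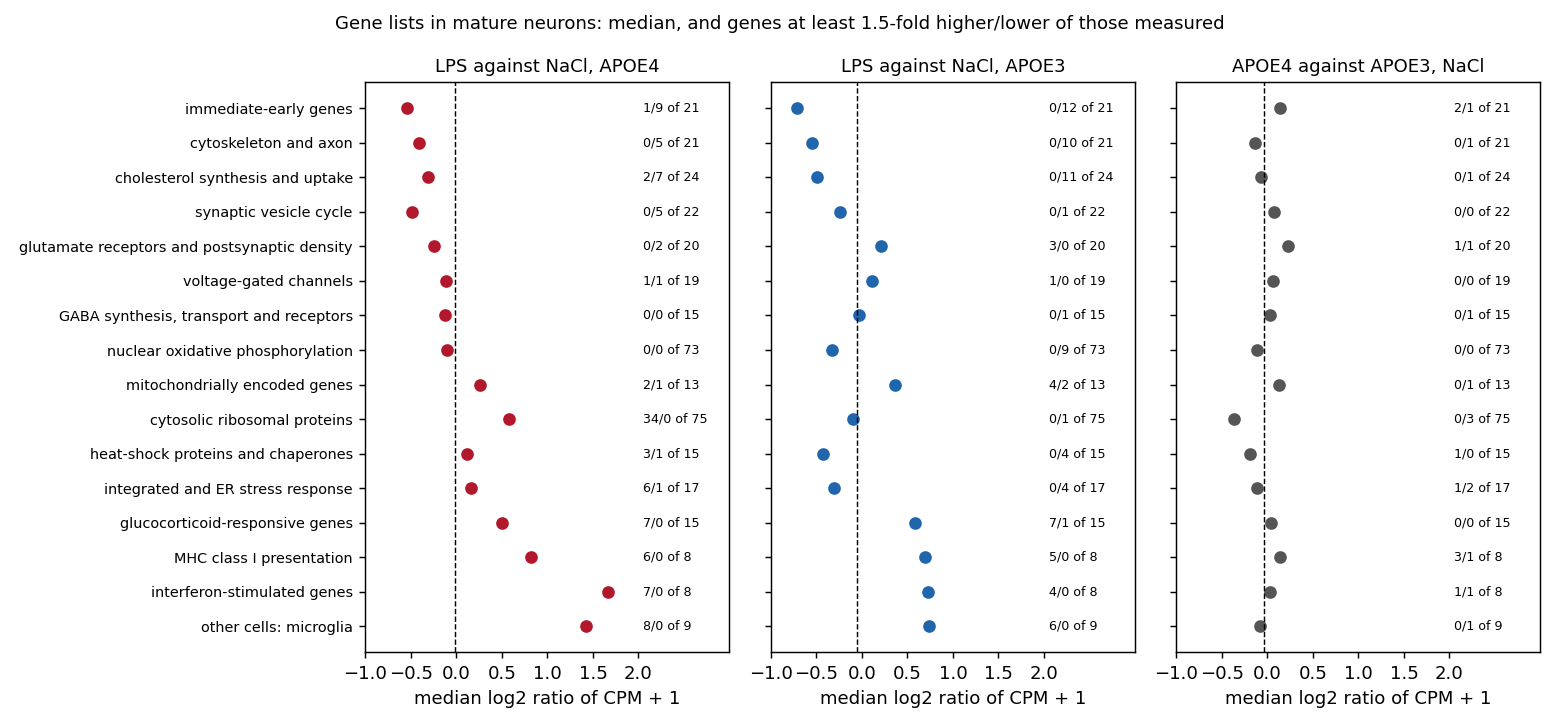
Median log2 ratio of each gene list in mature neurons (points) for LPS against NaCl in APOE4 and in APOE3 and for APOE4 against APOE3 after NaCl, with the numbers of genes at least 1.5-fold higher and lower of those measured at the right; the dashed line is the median of all measured genes. Immediate-early, cytoskeletal and cholesterol genes lie left of it in both LPS panels, and the ribosomal list lies right of it in APOE4 alone, with 34 of 75 genes higher.

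Ribosomal protein genes divided the genotypes. They counted 34 of 75 higher and 0 lower (median 0.57) for LPS in APOE4 and 0 of 75 higher and 1 lower (median -0.10) in APOE3. Of all genes, 8.9% were higher and 9.01% lower in APOE4, and 7.21% higher and 9.11% lower in APOE3. Over the 75 genes the LPS effect in APOE4 exceeded that in APOE3 by at least 1.5-fold for 54 and fell short of it for 0, where 14.7% and 12.1% of all genes did so. Among Slc17a7-type neurons the counts were 6 of 75 higher and 0 lower (median 0.18) and 4 of 75 higher and 0 lower (median 0.26), so the difference between genotypes was absent there. In the Gad class they were 16 of 75 higher and 0 lower (median 0.37) and 0 of 75 higher and 64 lower (median -0.85). The list thus depended on which neurons were summed. Nuclear-encoded genes of oxidative phosphorylation counted 0 of 73 higher and 0 lower (median -0.10) in APOE4 and 0 of 73 higher and 9 lower (median -0.32) in APOE3, and the 13 genes of the mitochondrial genome 2 of 13 higher and 1 lower (median 0.26) and 4 of 13 higher and 2 lower (median 0.36). The complex I gene mt-Nd1 had 2090.2 CPM in APOE4 LPS and 1329 in APOE4 NaCl neurons, and 2504 in APOE3 LPS and 1467 in APOE3 NaCl neurons, higher in each LPS library.

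Chaperone genes had medians of opposite sign in the 2 genotypes. Heat-shock proteins counted 3 of 15 higher and 1 lower (median 0.12) in APOE4 and 0 of 15 higher and 4 lower (median -0.43) in APOE3, and the stress response of the endoplasmic reticulum (ER) 6 of 17 higher and 1 lower (median 0.16) and 0 of 17 higher and 4 lower (median -0.30). For this list and those below, 8.9% of all genes were higher and 9.01% lower in APOE4, and 7.21% higher and 9.11% lower in APOE3. Hspa5, the ER chaperone BiP, had 224 CPM in APOE4 LPS and 153 in APOE4 NaCl neurons, and 134 in APOE3 LPS and 205 in APOE3 NaCl neurons. It was 1.46-fold higher (95% interval 1.26 to 1.69) in APOE4 and 1.53-fold lower (95% interval 1.32 to 1.78) in APOE3. Manf, a protein secreted under ER stress, had 128 CPM in APOE4 LPS and 78.9 in APOE4 NaCl neurons, and 77.4 in APOE3 LPS and 108 in APOE3 NaCl neurons, with the same opposite signs. Whether the genotypes differ was not tested. Glycolytic genes counted 0 of 22 higher and 3 lower (median -0.39) and 1 of 22 higher and 2 lower (median -0.25), and clock genes 0 of 16 higher and 2 lower (median -0.26) and 1 of 16 higher and 3 lower (median -0.15). Of the enzymes and transporters of aminergic and cholinergic neurons only 3 of 13 genes were measured, with 2 of 3 higher and 0 lower (median 1.26) in APOE4 and 1 of 3 higher and 1 lower (median 0.21) in APOE3.

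Outside the lists, single genes were named where the counting interval lay past 1.5-fold, at least 20% of neurons in the higher library had a UMI, and the neurons held at least 25% of the level of every other class. For LPS in APOE4 this left 17 higher and 76 lower genes. Arc and Nrgn were the farthest lower genes. C1ql3, a secreted protein that bridges synapses, had 144 CPM in APOE4 LPS and 419 in APOE4 NaCl neurons, and 228 in APOE3 LPS and 289 in APOE3 NaCl neurons, and was 2.91-fold lower (95% interval 2.49 to 3.41). Cckbr, a receptor for Cck, had 11.96 CPM in APOE4 LPS and 36.4 in APOE4 NaCl neurons, and 9.86 in APOE3 LPS and 22.5 in APOE3 NaCl neurons. Rprml had 31.1 CPM in APOE4 LPS and 95.9 in APOE4 NaCl neurons, and 71.3 in APOE3 LPS and 55.8 in APOE3 NaCl neurons, and Kcnv1, a silent potassium channel subunit, had 14.3 CPM in APOE4 LPS and 48.1 in APOE4 NaCl neurons, and 18.8 in APOE3 LPS and 25.1 in APOE3 NaCl neurons. Cckbr was low in both LPS libraries, whereas Rprml was low in APOE4 LPS alone; Kcnv1 had a log2 ratio of -0.53 in the Slc17a7 type. Ephb6, Impdh1, Ccn3 and Vps16 had log2 ratios of -1.69, -1.61, -1.56 and -1.56, and Ccn3 turned to 0.24 when barcodes with 4 of the 8 genes were let in.

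Among genes higher with LPS in APOE4, Slc17a6 was 2.402-fold higher (95% interval 1.92 to 3.003) and Zfhx3, a homeobox factor of subcortical neurons, 2.86-fold higher (95% interval 2.38 to 3.42). Zfhx3 had 198 CPM in APOE4 LPS and 69.2 in APOE4 NaCl neurons, and 105 in APOE3 LPS and 240.1 in APOE3 NaCl neurons; its log2 ratio was -0.43 in the Slc17a7 type, from 4 UMIs after LPS and 29 after NaCl, and 1.10 in the Gad class. Scn9a, a sodium channel, had 75.7 CPM in APOE4 LPS and 27.6 in APOE4 NaCl neurons, and 29.6 in APOE3 LPS and 49.3 in APOE3 NaCl neurons, and Cnr1, the cannabinoid receptor CB1, had 318 CPM in APOE4 LPS and 151 in APOE4 NaCl neurons, and 204 in APOE3 LPS and 93.5 in APOE3 NaCl neurons. Of the 399 Cnr1 UMIs in APOE4 LPS, 262 lay in 1 neuron; that neuron had 5 of the 8 genes and 17.7% mitochondrial UMIs. With it left out the log2 ratio of LPS to NaCl was -0.45, against 1.07 with it, so the higher APOE4 LPS value of Cnr1 rested on that neuron. Rbms3, Dlg5, Sh3bgrl2, Zfas1, Patj and Kcnip1 had log2 ratios between 1.04 and 1.24, and Zfas1 and Kcnip1 had -0.16 and 0.34 in the Slc17a7 type. Ctla2a, at 1.95% of the level in the endothelial class, Lcn2 and Saa3 passed all but the last condition. So did Nr4a1, Ipcef1 and Gda among the lower genes, with log2 ratios of -1.23, -1.204 and -1.15.

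For LPS in APOE3, 33 higher and 68 lower genes met the same conditions. Slc24a4, a sodium-calcium exchanger, had 46.2 CPM in APOE4 LPS and 56.1 in APOE4 NaCl neurons, and 97.2 in APOE3 LPS and 31.2 in APOE3 NaCl neurons, and was 3.12-fold higher (95% interval 2.37 to 4.14). Cdh9, a cadherin of synapses, had 89.3 CPM in APOE4 LPS and 119 in APOE4 NaCl neurons, and 134 in APOE3 LPS and 46.7 in APOE3 NaCl neurons. Matn2, a matrix protein, had 37.5 CPM in APOE4 LPS and 20.8 in APOE4 NaCl neurons, and 50.2 in APOE3 LPS and 15.6 in APOE3 NaCl neurons. APOE3 LPS was the highest library and APOE3 NaCl the lowest for all of these. Msra, which repairs oxidised methionine, was 2.47-fold (2.17 to 2.805) higher, Wipf3 2.68-fold (2.18 to 3.303) and the guidance factor Sema3e 2.35-fold (1.87 to 2.97). For several the difference was smaller or of the opposite sign in the Slc17a7 type, where the log2 ratios were -0.67 for Dach1, -0.46 for Nwd2, 0.46 for Sema3e, 0.25 for Lmo7 and 0.01 for Kctd8, against 1.52, 1.304, 1.22, 1.19 and 1.17 over all neurons. Apod and Ptgds, at 1.25% of the level in the oligodendrocyte class and 2.54% of the level in the oligodendrocyte class, were 11.4-fold higher and 3.61-fold higher over all neurons. In 1 neuron of APOE3 LPS lay 248 of the 713 Nwd2 UMIs. The Nwd2 ratio was 0.11 without neurons above 3 times the median UMI count of their library. It was 0.33 among neurons with no UMI of C1qa, Ctss, Cldn5 or Mog, and -0.90 in the Slc17a6 type. In the Gad class it was 1.25, from 29 UMIs after LPS and 15 after NaCl. The log2 ratio of Apod was 2.82 without the neuron that held 143 of its 401 APOE3 LPS UMIs, against 3.44 with it. Ptgds had a log2 ratio of -0.01 without the neurons that carry markers of another class.

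Among the lower genes of APOE3 LPS, beside Resp18, Scg2 and Tubb3, Nnat, neuronatin of the endoplasmic reticulum, had 163 CPM in APOE4 LPS and 166 in APOE4 NaCl neurons, and 59.6 in APOE3 LPS and 242 in APOE3 NaCl neurons, and was 4.06-fold lower (95% interval 3.35 to 4.97). Chga, a granin, had 84.5 CPM in APOE4 LPS and 89.96 in APOE4 NaCl neurons, and 64.3 in APOE3 LPS and 172 in APOE3 NaCl neurons. Ache, acetylcholinesterase, had 51.8 CPM in APOE4 LPS and 59.5 in APOE4 NaCl neurons, and 30.98 in APOE3 LPS and 84.8 in APOE3 NaCl neurons. Each had its lowest value in APOE3 LPS and its highest in APOE3 NaCl. Hap1, Zcchc12 and Ubfd1 had log2 ratios of -1.45, -1.64 and -1.48, and Gabrg1, a GABA-A receptor subunit, -2.12. In the Slc17a7 type the log2 ratio was 0.64 for Hap1 and 0.54 for Gabrg1, the opposite sign. Tmsb10, a thymosin, Ddah1 and Rorb passed all but the last condition, with log2 ratios of -1.51, -1.55 and -1.28, and Rorb was at -0.01 in the Slc17a7 type.

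Fewer genes differed between the genotypes after NaCl than between LPS and NaCl, and the NaCl libraries held more neuron UMIs than the LPS libraries. Between APOE4 NaCl and APOE3 NaCl neurons 4.09% of measured genes were higher and 5.82% lower, and the single-gene conditions left 7 higher and 15 lower genes. Ribosomal protein genes counted 0 of 75 higher and 3 lower (median -0.36), immediate-early genes 2 of 21 higher and 1 lower (median 0.13), cholesterol genes 0 of 24 higher and 1 lower (median -0.07) and the synaptic vesicle list 0 of 22 higher and 0 lower (median 0.07). Cdh9 was 2.54-fold higher (95% interval 2.05 to 3.17), and Cck followed. Rtn4r, the Nogo receptor, had 39.9 CPM in APOE4 LPS and 85.7 in APOE4 NaCl neurons, and 43.2 in APOE3 LPS and 45.4 in APOE3 NaCl neurons. Shisa6, an auxiliary AMPA receptor protein, had 117 CPM in APOE4 LPS and 119 in APOE4 NaCl neurons, and 97.6 in APOE3 LPS and 64.03 in APOE3 NaCl neurons, and Trps1, a transcriptional repressor, had 220.0 CPM in APOE4 LPS and 289 in APOE4 NaCl neurons, and 187 in APOE3 LPS and 163 in APOE3 NaCl neurons. Rtn4r was highest in APOE4 NaCl, whereas Shisa6 was also high in APOE4 LPS. Tmem151b and Sema3a had log2 ratios of 1.18 and 1.18, the second at 0.49 in the Slc17a7 type. Arhgap15 and Ccnd2 were 2.28-fold (1.72 to 3.05) and 2.004-fold (1.57 to 2.58) higher but reached under 25% of the level of another class, and Ccnd2 was at 0.48 on the log2 scale in the Slc17a7 type.

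The lower genes of APOE4 NaCl included Slc17a6, 3.005-fold lower (95% interval 2.499 to 3.62), together with the 6 of 7 thalamic and midbrain genes that were lower. Cacna2d2, a calcium channel subunit, had 88.5 CPM in APOE4 LPS and 48.97 in APOE4 NaCl neurons, and 102 in APOE3 LPS and 103 in APOE3 NaCl neurons, and Vat1l had 86.1 CPM in APOE4 LPS and 53.5 in APOE4 NaCl neurons, and 50.2 in APOE3 LPS and 106 in APOE3 NaCl neurons. Rnf152, Ankrd55, Tmem130 and Dpysl5 had log2 ratios of -1.14, -1.12, -1.03 and -1.01. Among Slc17a7-type neurons Tmem130 was at 0.04, Dpysl5 at -0.33, Gabrg1 at 0.14 and the transcriptional regulator Id4 at 1.23, against -1.03 for Id4 over all neurons. Zfhx3 was at 1.67 in that type, from 29 UMIs in APOE4 and 4 in APOE3, at -1.64 in the Gad class and -1.78 over all neurons. Akap12, higher in the endothelial class, was at -1.22.

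After LPS, 7.93% of genes were higher and 7.8% lower in APOE4 than in APOE3 neurons, and 11 higher and 10 lower genes met the conditions. The glutamate receptor list counted 0 of 20 higher and 2 lower (median -0.27), ribosomal protein genes 4 of 75 higher and 0 lower (median 0.33), ER stress genes 4 of 17 higher and 0 lower (median 0.29) and immediate-early genes 4 of 21 higher and 2 lower (median 0.23). Among the higher genes Resp18 was 3.16-fold higher (95% interval 2.81 to 3.57), Scg2 2.54-fold (2.21 to 2.91) and Vgf, a granin-like peptide precursor, 2.27-fold (1.88 to 2.74). Ndn, the imprinted gene of necdin, had 383 CPM in APOE4 LPS and 204 in APOE4 NaCl neurons, and 161 in APOE3 LPS and 352 in APOE3 NaCl neurons, and was 2.37-fold higher (95% interval 2.06 to 2.73). Within the Slc17a7 type the log2 ratios were -1.09 for Resp18, -0.64 for Scg2 and -0.24 for Ndn, all of the opposite sign, and 0.35 for Vgf. Gad-class ratios were 2.30, 1.199 and 1.33 for Resp18, Scg2 and Ndn, and in the Slc17a6 type 0.61, 0.86 and 1.18, all of the same sign as over all neurons. Vgf was at 0.63 without the neuron that held 86 of its 270 APOE4 LPS UMIs. Tspan9, Wdr6, Nap1l5 and Ntng1 had log2 ratios of 1.21, 1.07, 0.89 and 0.86, with -0.10 for Nap1l5 in the Slc17a7 type and -0.53 for Ntng1 in the Gad class. Scn9a, at 1.33 over all neurons, was at 0.04 in the Slc17a7 type.

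Lower in APOE4 LPS than in APOE3 LPS neurons were Cfap54, at 19.1 against 60.1 CPM, the copine gene Cpne5, at 36.7 against 85.4 CPM, and the phosphodiesterase gene Pde7b, at 112 against 235 CPM. The Cfap54 log2 ratio was -1.11 without the neuron that held 39 of its 128 APOE3 LPS UMIs, against -1.60 with it. Cpne5 was 2.33-fold lower (95% interval 1.68 to 3.29) and Pde7b 2.09-fold lower (95% interval 1.73 to 2.54). Rprml, Slc24a4, Sema3e, Atp2b1, Nrgn, Ano3 and Slc24a2 followed with log2 ratios of -1.17, -1.06, -0.99, -0.84, -0.84, -0.82 and -0.78. In the Slc17a7 type Slc24a4 was at 0.09, Atp2b1 at -0.51, Nrgn at -0.45 and Ano3 at -0.25. Of genes shared with other cells, Ctla2a was 14.2-fold higher, with 262 of its 567 APOE4 LPS UMIs in 1 neuron, and the chemokine gene Ccl5 6.25-fold (4.08 to 9.86) higher, while Arhgap15 and Meis2 were 2.26-fold (1.56 to 3.34) and 2.05-fold (1.74 to 2.42) lower. Meis2 was at -0.08 on the log2 scale in the Slc17a7 type.

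Reads assigned to mouse Apoe gave 55 UMIs in APOE4 LPS and 124 in APOE4 NaCl neurons, and 90 in APOE3 LPS and 108 in APOE3 NaCl neurons. They measure only sequence assigned to the mouse gene, since the replaced locus carries the human transcript, and they check no label. Receptors and partners of APOE were close to even, with 1 of 14 higher and 0 lower (median -0.12) for LPS in APOE4, 0 of 14 higher and 1 lower (median -0.01) for LPS in APOE3 and 0 of 14 higher and 0 lower (median 0.03) for genotype after NaCl. Lrp1, the large receptor that takes up APOE particles, had 104 CPM in APOE4 LPS and 135 in APOE4 NaCl neurons, and 131 in APOE3 LPS and 120.3 in APOE3 NaCl neurons. App, the amyloid precursor, had 1035 CPM in APOE4 LPS and 1272 in APOE4 NaCl neurons, and 1213 in APOE3 LPS and 1324 in APOE3 NaCl neurons. The cholesterol exporter gene Abca1 had 42.3 CPM in APOE4 LPS and 18.5 in APOE4 NaCl neurons, and 30.04 in APOE3 LPS and 23.4 in APOE3 NaCl neurons, and was 2.28-fold higher (95% interval 1.56 to 3.33) with LPS in APOE4 and 1.29-fold higher (95% interval 0.881 to 1.88) in APOE3. Xist, the X-inactivation RNA of females, had 1 UMI in APOE4 LPS, 0 in APOE4 NaCl, 0 in APOE3 LPS and 1 in APOE3 NaCl neurons, in libraries that the labels give as male.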

How the data were processed

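The files held whole-number UMI counts per gene and barcode, deposited by the authors as unnormalised matrices of 32285 genes from Cell Ranger 7.0.1, per the file headers; the submitters' processing notes name Cell Ranger 7.0 and build mm10. Cells were 10x 3' libraries of glia-enriched brain suspensions, per the labels' protocols, and the files do not tie cells to mice. From the counts, neurons were chosen by the rule given above and their UMIs summed per library with Python 3.11.15, numpy 2.4.6, scipy 1.17.1 and pandas 2.3.3. Ratios have exact conditional binomial (Clopper-Pearson) intervals, sums exact Poisson and shares exact binomial intervals, all at 95% and for counting error only. Thinning drew 2000 UMIs per neuron and left out shallower ones, 31 in APOE4 LPS and fewer elsewhere. Other classes were rebuilt from 8 marker lists. Named genes were the 10 highest and lowest of each comparison that met the conditions given, plus genes named apart for a higher level in another class, up to 6 per comparison. A few genes that met these rules are not reported here. The scripts were tested on simulated data, and promoters came from the RefSeq table of GRCm38.p6. The rule, its members and the gene lists were chosen with earlier results of these data known, so none is independent of them.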

Additional observations from a re-analysis of the deposited data

Results flagged for a closer look

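The 12 genes given here are named genes with LPS ratios of opposite sign in the APOE4 and APOE3 neurons. They are not all such genes, since Rprml, Cdh9 and Slc24a4 also had opposite signs. Of all measured genes, 14.7% had an LPS effect at least 1.5-fold higher in APOE4 than in APOE3, and 12.1% one at least 1.5-fold lower. The difference was not tested because each group was 1 library. Zfhx3 lay farthest apart among the 12, with log2 ratios of LPS to NaCl of 1.501 in APOE4 and -1.19 in APOE3, a difference of 2.69. Resp18 had 0.62 in APOE4 and -1.62 in APOE3 (difference 2.24), and Scg2 0.71 in APOE4 and -1.45 in APOE3 (2.16). Higher with LPS in APOE4 and lower in APOE3 were also Scn9a, Ndn and Slc17a6, with differences of 2.14, 2.03 and 2.02. Nap1l5, Vat1l, Tspan9 and Dpysl5 had differences of 1.78, 1.73, 1.497 and 1.403. Cfap54, with -1.19 in APOE4 and 0.64 in APOE3, and Cpne5, with -1.03 in APOE4 and 0.66 in APOE3, went the other way, with differences of -1.84 and -1.69. In the Slc17a7 type the difference was -2.96 for Zfhx3, -1.32 for Resp18, -1.58 for Scg2 and -0.11 for Ndn, where Zfhx3 had only 4 UMIs in APOE4 LPS and 29 in APOE4 NaCl, and 30 in APOE3 LPS and 4 in APOE3 NaCl. In the Gad class it was 3.02 for Zfhx3, 2.54 for Resp18, 1.82 for Scg2 and 1.81 for Ndn, of the same sign as over all neurons.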

How the results depend on the processing

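No paired analysis was possible because each group was 1 library, and no replicate could be left out. Shares of neurons moved with the rule: the APOE4 LPS share was 1.28% (4 of 8 genes), 0.720% (6 of 8 genes, and likewise without neurons carrying markers of another class), 1.44% (from 2000 UMIs) and 0.528% (no UMI of the 4 markers of other cells). With 6 of 8 genes the share was 2.50% in APOE4 NaCl, 1.58% in APOE3 LPS and 1.68% in APOE3 NaCl; without neurons carrying markers of another class 2.43% in APOE4 NaCl and 1.81% in APOE3 NaCl; and with no UMI of the 4 markers 2.33% in APOE4 NaCl, 1.25% in APOE3 LPS and 1.65% in APOE3 NaCl. Without a limit on those markers, added after the data were seen, it was 1.68% in APOE4 LPS, 3.17% in APOE4 NaCl and 2.14% in APOE3 LPS. APOE4 LPS was the lowest library in all of these.

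Counts of genes at least 1.5-fold higher and lower depended on the low-count filter and the pseudocount. For LPS in APOE4 they were 440 and 465 with a pseudocount of 10 (1082 and 1095 with 1), 348 and 513 from 200 UMIs, 3591 and 2907 from 1 UMI, and 1746 higher from 20 UMIs; 1725 were lower in the Slc17a7 type. For LPS in APOE3 they were 353 and 445 with a pseudocount of 10 (876 and 1108 with 1), 309 and 520 from 200 UMIs, 2621 and 2510 from 1 UMI, and 1430 higher from 20 UMIs. Between genotypes after NaCl they were 119 and 187 with a pseudocount of 10 (497 and 708 with 1), 135 and 177 from 200 UMIs, 1923 and 1963 from 1 UMI, and 865 and 1160 from 20 UMIs; 398 were lower in the Slc17a7 type. Between genotypes after LPS they were 347 and 333 with a pseudocount of 10 (964 and 948 with 1), 287 and 295 from 200 UMIs, 3345 and 2674 from 1 UMI, and 1536 and 1500 from 20 UMIs; 1577 were higher by the mean CPM of cells and 1569 lower in the Slc17a7 type. For the difference of the LPS effect they were 964 and 746 with a pseudocount of 10 (1783 and 1472 with 1), 787 and 630 from 200 UMIs, and 4490 and 3925 from 1 UMI.

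In the Slc17a7 type, added after the data were seen, several log2 ratios changed sign. For LPS in APOE3 they were -0.67 for Dach1, -0.46 for Nwd2, 0.54 for Gabrg1, 0.88 for Scg2 and 0.64 for Hap1, and for LPS in APOE4 -0.43 for Zfhx3 and -0.16 for Zfas1. Between genotypes after NaCl they were 0.14 for Gabrg1, 1.23 for Id4, 0.038 for Tmem130 and 1.67 for Zfhx3. After LPS they were -1.09 for Resp18, -0.64 for Scg2, -0.24 for Ndn, -1.29 for Zfhx3, -0.10 for Nap1l5 and 0.092 for Slc24a4, and the interferon list's median was -0.23. In the Gad class Fkbp5 was at -0.51 with LPS in APOE3 and Ntng1 at -0.53 between genotypes after LPS. Ptgds was at -0.0093 in APOE3 without neurons carrying markers of another class. In APOE4, Cnr1 was at -0.52 with 6 of 8 genes and -0.40 with at most 10% mitochondrial UMIs, and Ccn3 at 0.24 with 4 of 8 genes. The neuron with most UMIs of a gene was also left out where it held at least 25% of them, a setting added after the data were seen. Among the genes named by the rule this gave Cnr1 -0.45 in APOE4 and kept the sign of the other 14 such results. Of all 15, 11 kept their sign but fell outside the counting interval of their ratio, and 3 stayed within it. Of list genes outside these, Mt2 in APOE3 (-0.18, against 0.28) and Nr4a2 in APOE4 (-0.54, against 0.14) changed sign. Apart from Cnr1, the cause of these changes was not tested. Median-of-ratios scaling moved the ratios by at most 0.054 on the log2 scale.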
